A study of Mus musculus with 12 samples.

Results

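Mesenchyme of the pelvic urethra was compared between 2 stages of mouse development, embryonic days E18.5 and E14.5, across all genes. The comparison used every library labelled urethral mesenchyme, 3 per stage, which were 6 of the 12 libraries of the series, the other 6 being bladder mesenchyme of the same stages. Of 55228 genes in the count tables, 18805 had enough counts to be tested. The study sought genes specific to the bladder or urethral compartment, and the comparison here asks what changed in the urethral compartment between the stages. All animals were CD-1 mouse embryos labelled wildtype and untreated, and only females were used. The bladder and urethra were dissected at the stated stage, loosened in cold trypsin, and the mesenchyme was pulled from the epithelium with forceps. Each library held the pooled tissue of the female embryos of a litter, and the 3 litters of a stage were independent. The litters of the 2 stages were different animals, and each stage had its own count table, so stage, litter and any difference in handling or counting between the tables cannot be told apart. In a whole-tissue library, fewer cells of a type and less RNA per cell cannot be told apart either.

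The urethral mesenchyme is the connective tissue sleeve around the epithelial tube that drains the bladder. It gives rise to fibroblasts and smooth muscle, and around its outer face striated muscle fibres form the urethral sphincter. The epithelium signals to it through Sonic hedgehog, whose receptor Ptch1 and effector Gli1 are themselves switched on by the signal, while retinoic acid, Wnt, BMP and FGF factors and posterior Hox genes pattern the lower urinary tract.

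Total counts ranged from 22872878 to 36349777 over the urethral libraries. Levels below are CPM, counts scaled to a common library total, in the order replicate 1, 2 and 3, and log2 differences are E18.5 minus E14.5 ± SE with p adjusted over all 18805 genes (edgeR quasi-likelihood test, Benjamini-Hochberg). A gene is called where that value was under 0.05. The first principal component of the urethral libraries held 68.6% of the variance and separated the stages, and replicate 1 of E14.5 lay nearer E18.5 (-36.9) than replicates 2 and 3 (-73.7 and -87.7). That library also held more skeletal muscle marker RNA than its fellows (131.7 against 9.84 and 12.96 CPM summed over 8 genes) and less embryonic globin RNA (9.53 against 214 and 91.8 CPM over 3 genes). Results that move with it are given without it below. Markers of mesenchyme were high in every library with 8631 to 12983 CPM at E14.5 and 16601 to 18703 CPM at E18.5 summed over 12 genes. The collagen genes Col1a1, Col1a2 and Col3a1 made up most of the sum at both stages. Of the 12 genes 5 were called higher, these collagens among them, and 2 lower, Pdgfra and Tcf21 (log2 difference -0.55 and -0.75). Of all genes 13.6% were called higher and 10.8% lower. The libraries were not pure mesenchyme. Summed markers of epithelium (22 genes) stood at 2676, 1216 and 1421 CPM at E14.5 and 4913, 7141 and 6342 CPM at E18.5, and neuronal markers (17 genes) ranged from 1349 to 3834 CPM over the 6 libraries. Y-linked RNA summed to 0.23 CPM or less in each urethral library.

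**Figure D1:**
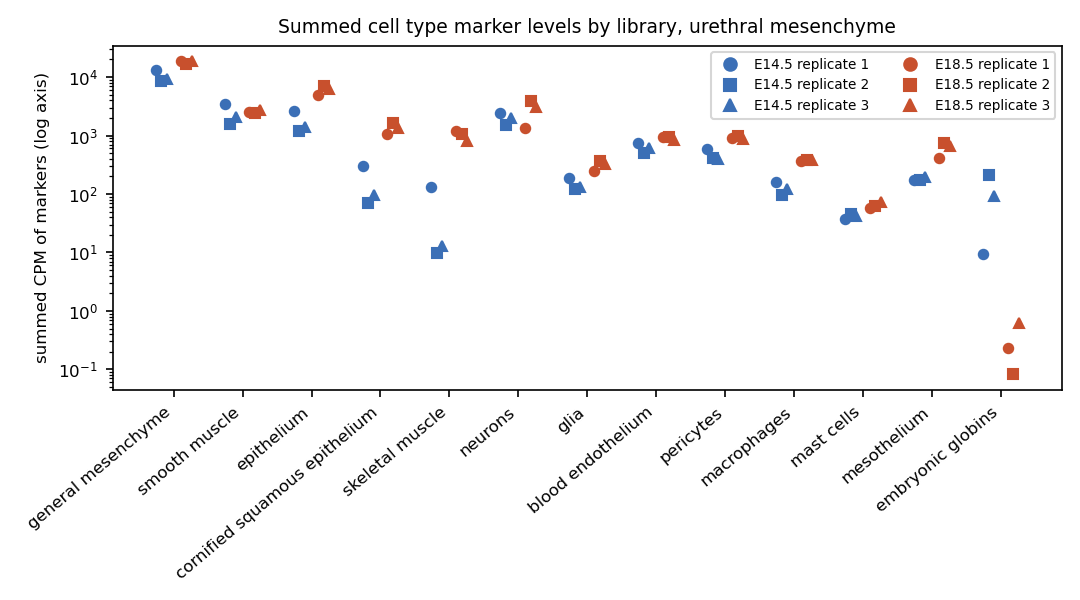
Summed CPM of marker genes of 13 cell types (log axis) in each urethral library, blue for E14.5 and red for E18.5, with circles, squares and triangles for replicates 1, 2 and 3. Skeletal muscle, cornified epithelium and macrophage markers were higher in every E18.5 library, embryonic globins were lower, and smooth muscle markers overlapped between the stages.

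Between E14.5 and E18.5 the urethral mesenchyme gained striated muscle and matrix transcripts, and transcripts of cell division and of some patterning genes fell. Of the genes tested, 2558 rose (13.6%) and 2028 fell (10.8%), together 24.4%. Rises were the larger: 1815 genes rose at least 2-fold and 938 at least 4-fold, whereas 360 fell at least 2-fold and 95 at least 4-fold. The median log2 difference of all genes was -0.06. With replicate 3 of E14.5 left out 1461 genes rose and 890 fell, and with replicate 2 of E18.5 left out 1705 rose and 1001 fell. Without replicate 1 or 3 of E18.5, 1310 and 1004 fell. The libraries of the stages did not overlap for 21.3% of genes on the higher side and 22.7% on the lower side. Counts of called list members below compare with 13.6% higher and 10.8% lower of all genes. Those for the bladder compare with 23.7% higher and 22% lower. Counts of differences between the urethral and bladder changes compare with 4.03% larger and 4.64% smaller in the urethra.

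**Figure D2:**
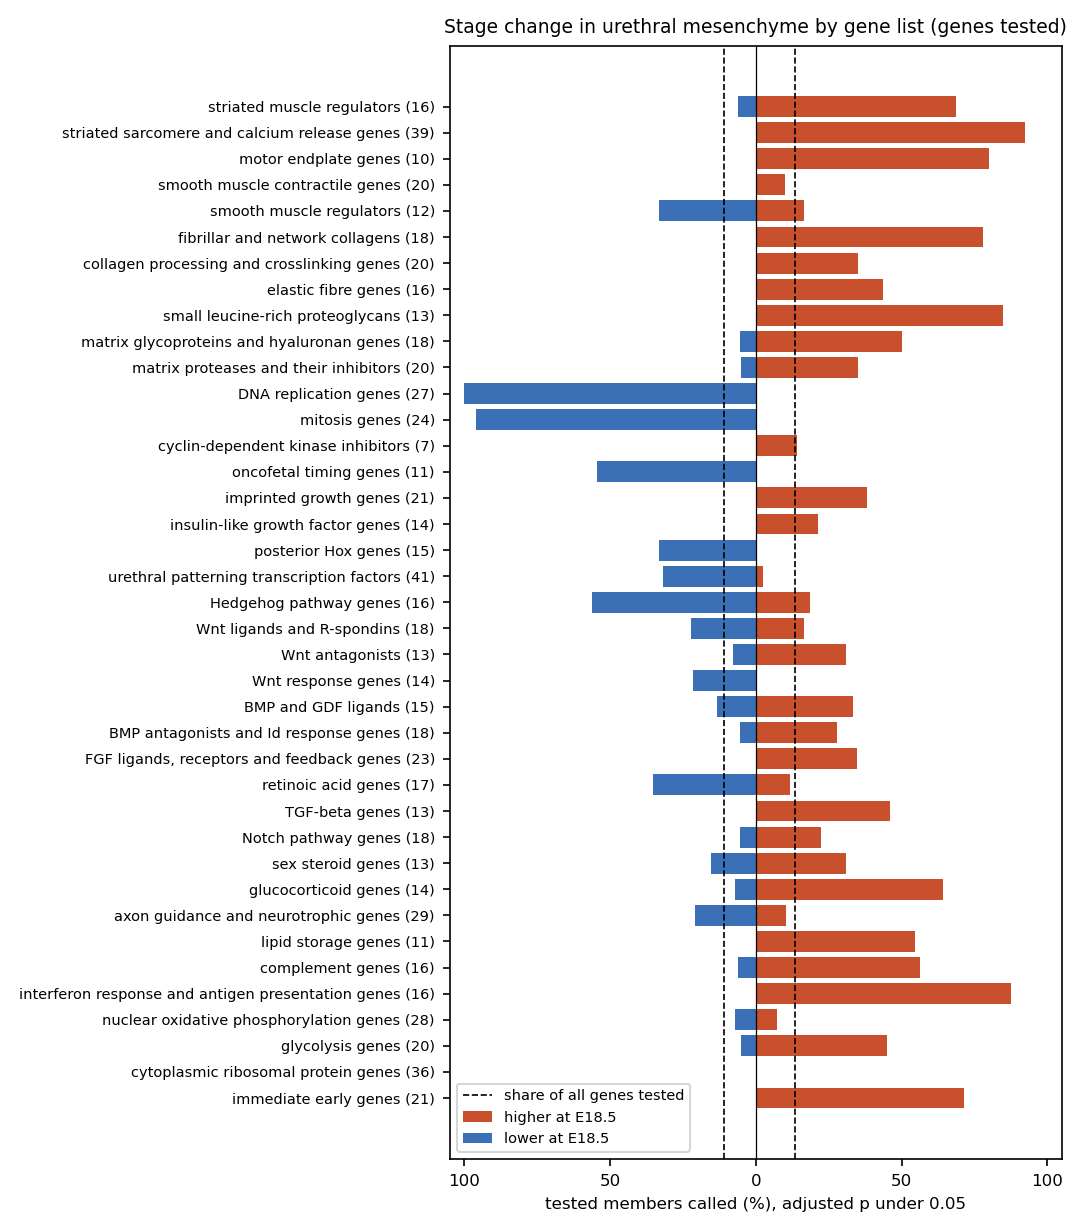
Share of tested members called higher (red, right) or lower (blue, left) at E18.5 in 39 gene lists, with the number of members tested in parentheses and dashed lines at the shares of all genes tested (13.6% and 10.8%). Striated muscle, collagen, proteoglycan and interferon lists lean to the right, replication and mitosis lists to the left, and no ribosomal protein gene was called.

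Among the genes that rose most, Krt13, a keratin of internal squamous epithelium, stood at 0.567, 0.105 and 0.220 CPM at E14.5 and 181, 302 and 166 CPM at E18.5 (log2 difference 9.58 ± 0.50, adjusted p = 9.65e-06). Every E18.5 library was far above every E14.5 library. Tmprss11b, a transmembrane serine protease of squamous epithelium, went from 0.227, 0.314 and 0.147 CPM to 17.6, 49.7 and 20.7 CPM (log2 difference 6.93), and the gasdermin family gene Gsdmc2 from 1.32, 0.262 and 0.367 CPM to 46.0, 79.7 and 62.7 CPM (log2 difference 6.66). Mroh4 had no count in the 3 E14.5 libraries and 5.63, 6.97 and 6.93 CPM at E18.5, at least 197-fold higher when the E14.5 group is set at 3 counts. Dbx1, a homeobox gene, had 1 count over the E14.5 libraries against 9.67, 5.49 and 5.00 CPM at E18.5, a 643-fold ratio with a 95% counting interval from 115 to 25435. The interval treats every count as independent and may be too narrow. The epithelial markers rose with these genes: 11 of the 22 markers were called higher and 0 lower, with a median log2 difference of 1.73 (5 without replicate 3 of E14.5, 6 without replicate 2 of E14.5, 7 without replicate 2 or 3 of E18.5, and 18 without replicate 1 of both E14.5 groups). Of 11 tested cornified squamous markers 9 rose. The part of residual epithelium in the rise of these genes was not tested.

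Among other leading rises, Clec3b, which encodes tetranectin, a secreted plasminogen-binding lectin, was at 0.303, 0.209 and 0.0734 CPM at E14.5 and 6.37, 25.7 and 32.8 CPM at E18.5 (log2 difference 6.75 ± 0.82, adjusted p = 0.000506), with replicate 1 lowest among the E18.5 libraries but still above all E14.5 libraries. Ckm, the creatine kinase of striated muscle, is described with the muscle genes.

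Among the genes that fell most, the embryonic globin Hbb-y was at 7.41, 175 and 76.8 CPM at E14.5 and 0.127, 0 and 0.321 CPM at E18.5 (log2 difference -9.03 ± 1.51, adjusted p = 0.00239), and Hba-x at 2.04, 34.9 and 12.8 CPM at E14.5 and 0.101, 0.0819 and 0.175 CPM at E18.5 (log2 difference -7.04 ± 1.11, adjusted p = 0.00175). Both were low in replicate 1 of E14.5 and near 0 at E18.5. With limma-voom the adjusted p of Hbb-y was 0.174. Globin genes have near-identical copies, so the split of reads among them is uncertain. The red cell anion exchanger Slc4a1 fell in step in all 3 libraries, from 8.96, 9.11 and 8.55 CPM to 1.497, 1.64 and 1.58 CPM (log2 difference -2.50 ± 0.31, adjusted p = 0.000403), while the adult globin Hbb-bs stood at 365, 389.6 and 279 CPM and 338, 358 and 365 CPM (log2 difference 0.04, adjusted p = 0.925). Of 8 tested markers of definitive red cells 4 fell and 0 rose, with 2 lower without replicate 2 of E14.5 or replicate 1 or 2 of E18.5.

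Outside the blood, Prokr2, the receptor of the prokineticins, stood at 21.4, 52.3 and 84.8 CPM at E14.5 and 2.72, 1.19 and 2.34 CPM at E18.5 (log2 difference -4.64 ± 0.52, adjusted p = 0.000314). The stages did not overlap, and the E14.5 libraries spread widely. Sall4, a zinc finger factor of embryonic progenitors, went from 2.04, 11.3 and 11.4 CPM to 0.609, 0.287 and 0.643 CPM (log2 difference -3.97 ± 0.70, adjusted p = 0.00224). Tnmd, a membrane protein of tendon progenitors, went from 15.7, 8.22 and 10.9 CPM to 1.32, 2.13 and 1.52 CPM (log2 difference -2.82 ± 0.32, adjusted p = 0.000276). Ntsr1, the neurotensin receptor, fell by 2.62 on the log2 scale and Tll1, a protease that matures procollagen, by 2.38 (adjusted p = 0.000521 and 0.000213). Hdc, which makes histamine, was at 7.30, 47.1 and 61.5 CPM at E14.5 and 1.37, 2.38 and 3.48 CPM at E18.5 (log2 difference -4.01 ± 0.85, adjusted p = 0.00743), with replicate 1 again the lowest at E14.5.

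Striated muscle genes rose together. Of the 16 regulators tested, 11 rose and 1 fell, with a median log2 difference of 2.85, against 13.6% and 10.8% of all genes. Of 39 sarcomere and calcium release genes tested (40 listed, Myoz1 too low), 36 rose and 0 fell (median 3.61), and of 10 motor endplate genes 8 rose and 0 fell (median 3.08). Without replicate 3 of E14.5 the calls were 4 regulators and 5 endplate genes and 5 of 8 skeletal muscle markers. In the bladder 19 of the 39 sarcomere genes rose and 2 fell (median 1.25), against 23.7% and 22% of all genes. Of the regulators 2 rose and 2 fell there, and of the endplate genes 3 rose and 0 fell. The 8 skeletal muscle markers summed to 2971 to 4785 CPM in the bladder at E18.5, against 793 to 1197 CPM in the urethra. Acta1, Ckm and Tnnt3 made up most of the bladder sum, with means of 3166, 599 and 280 CPM. In the urethra at E18.5 these genes averaged 179, 34.8 and 43.5 CPM. Myod1, Myog, Ttn, Mylpf and Myh3 had bladder means of 0.0571, 0.264, 0.271, 1.09 and 3.62 CPM at E18.5. Their urethral means were 40.3, 122, 78.8, 106 and 416 CPM. The regulator that fell, Six4, a homeobox factor also found outside muscle (log2 difference -0.57 ± 0.18, adjusted p = 0.0413), was not called without any 1 urethral library other than replicate 1 of E14.5. Replicate 1 of E14.5, which held the most of these transcripts at that stage, lowers the fitted change, and values without it are given where they differ by over 1.5 times.

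Pax7, the transcription factor of muscle stem cells, stood at 1.10, 0 and 0.220 CPM at E14.5 and 16.8, 11.2 and 11.7 CPM at E18.5 (log2 difference 4.98 ± 1.12, adjusted p = 0.0129). The stages did not overlap. The call was lost without replicate 3 of E14.5 (log2 difference 4.68) and with DESeq2 (adjusted p = 0.108). Myod1, which commits cells to muscle, went from 10.2, 0.680 and 1.62 CPM to 46.8, 42.5 and 31.5 CPM (log2 difference 3.29 ± 0.76, adjusted p = 0.0108, or 5.16 without replicate 1 of E14.5). Myog, the factor that starts terminal muscle differentiation, went from 24.4, 1.67 and 3.60 CPM to 142, 126 and 96.4 CPM (log2 difference 3.64 ± 0.84, adjusted p = 0.0109). Its log2 difference was 5.55 without replicate 1 of E14.5, and it was not called without replicate 3 of E14.5 (adjusted p = 0.0514). Mymx, a short membrane protein needed for myoblasts to fuse, went from 1.74, 0.0785 and 0.587 CPM to 13.2, 10.1 and 10.7 CPM (log2 difference 3.86 ± 0.83, adjusted p = 0.00688). Its partner Mymk, the fusogen myomaker, was at 4.54, 0.183 and 0.367 CPM and 25.1, 21.9 and 17.9 CPM (log2 difference 3.70), or 6.32 without replicate 1 of E14.5, and was not called without replicate 3 of E14.5 or replicate 2 of E18.5. Eya1, a cofactor that acts upstream of the muscle programme and in other mesenchyme, was the most abundant regulator not called, at 112, 86.5 and 120.2 CPM and 106, 113 and 104 CPM.

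Among sarcomere genes, Ttn, the giant spring protein titin, stood at 6.20, 0.131 and 0.294 CPM at E14.5 and 113, 77.3 and 45.8 CPM at E18.5 (log2 difference 5.20 ± 1.03, adjusted p = 0.00546). Replicate 1 of E14.5 stood far above the other libraries of its stage, and without it the log2 difference was 8.58. Myh8, the perinatal myosin heavy chain, was at 6.69, 0.314 and 0.404 CPM and 126, 105.1 and 69.2 CPM (log2 difference 5.39, or 8.13 without that library). Tnni1, the slow troponin inhibitor subunit, was at 10.4, 3.56 and 2.53 CPM at E14.5 and 81.8, 71.9 and 57.3 CPM at E18.5 (log2 difference 3.68 ± 0.43, adjusted p = 0.000352). All 3 E18.5 libraries were above all 3 E14.5 libraries for each of these genes. Ckm was at 0.605, 0.0523 and 0 CPM and 38.2, 37.4 and 28.9 CPM (log2 difference 7.42 ± 1.63, adjusted p = 0.00879), and DESeq2 gave no adjusted p for it. In the bladder Ckm rose too, from 17.3, 0.166 and 0 CPM to 646, 689 and 463 CPM, whereas Ttn stayed at 0.46 CPM or less. The difference of the changes was not called for Ckm (adjusted p = 0.881). Myh3, the embryonic myosin heavy chain, rose from 55.6, 0.680 and 2.75 CPM to 505, 442 and 301 CPM (adjusted p = 0.0276), with a log2 difference of 4.41 that became 7.98 without replicate 1 of E14.5 and lost its call (3.90 to 4.60) without replicate 3 of E14.5 or any 1 of the E18.5 libraries. In GRCm38, Ttn lies on chromosome 2 from 76703980 to 76982547 and Tnni1 on chromosome 1 from 135779434 to 135810989.

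**Figure D3:**
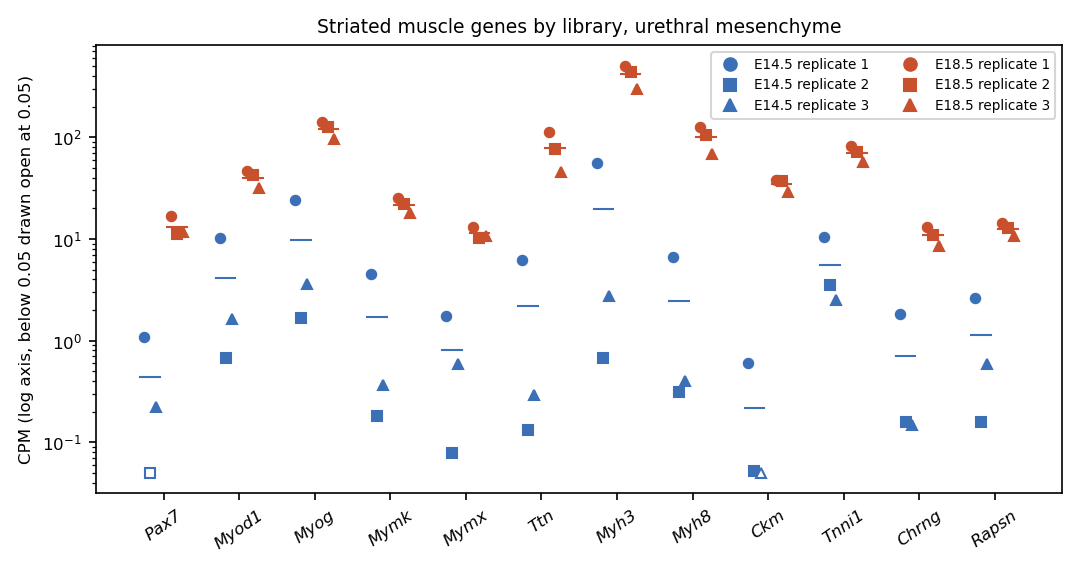
CPM (log axis) of 12 striated muscle genes in each urethral library, with bars at group means and open symbols for values under 0.05 CPM. All E18.5 libraries lie above all E14.5 libraries, and replicate 1 of E14.5 (blue circles) is the highest of its stage for each gene.

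The endplate is the patch of muscle membrane under a motor nerve ending, where acetylcholine receptors cluster. Chrng, the gamma subunit of the fetal receptor, stood at 1.82, 0.157 and 0.147 CPM at E14.5 and 13.1, 10.9 and 8.59 CPM at E18.5 (log2 difference 3.98 ± 0.85, adjusted p = 0.00684), or a log2 difference of 6.11 without replicate 1 of E14.5. Rapsn, which clusters the receptors, was at 2.65, 0.157 and 0.587 CPM and 14.3, 12.7 and 10.6 CPM (log2 difference 3.50 ± 0.74, adjusted p = 0.00629). Chrne, the adult subunit that replaces Chrng after birth, was at 0.454, 0.628 and 0.147 CPM and 0.457, 0.123 and 0.468 CPM (adjusted p = 0.879). Lrp4, a receptor for the nerve signal agrin that other tissues also make, was at 41.6, 37.2 and 41.7 CPM and 60.01, 47.0 and 46.2 CPM (adjusted p = 0.0677, and 0.0418 with DESeq2). The promoter of Chrng is shown because muscle regulators bind the E-box CAGCTG, and this letter string occurs in 4 of 6 endplate promoters in the table used (66.7%), 12 of 29 sarcomere promoters (41.4%), 5 of 16 smooth muscle contractile promoters (31.2%), 0 of 7 striated regulator promoters and 15.9% of 12724 promoters of tested genes. The window runs from 250 bases before to 50 after the RefSeq start, chr1:87205561-87205860 on the plus strand of GRCm38.p6, with each CAGCTG (the same on both strands) in capitals.
Chrng: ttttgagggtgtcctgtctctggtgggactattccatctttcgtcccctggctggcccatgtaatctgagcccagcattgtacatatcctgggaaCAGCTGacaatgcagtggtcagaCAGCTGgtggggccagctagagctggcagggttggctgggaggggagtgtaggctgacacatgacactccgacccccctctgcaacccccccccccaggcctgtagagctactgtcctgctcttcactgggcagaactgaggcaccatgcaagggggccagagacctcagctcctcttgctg
The string occurs 2 times in this window. A match of letters is a description and shows no binding. The motifs were chosen after the gene values had been seen.

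Few smooth muscle contractile genes were called. Of 20 tested, 2 rose and 0 fell, with a median log2 difference of 0.23, against 13.6% of all genes that rose. The 2 were Casq2, a calcium store protein shared with striated muscle and counted in both lists (log2 difference 3.78 ± 0.78, adjusted p = 0.00655, or 5.69 without replicate 1 of E14.5), and Tpm2, a tropomyosin of both muscle types (log2 difference 0.76, adjusted p = 0.0404), which lost its call without any 1 of 5 urethral libraries. Counts were 4 without replicate 1 of E14.5, 6 without replicate 1 of both E14.5 groups and 1 without any other urethral library. Myh11, the smooth muscle myosin heavy chain, stood at 850.3, 327 and 506 CPM at E14.5 and 713, 553 and 708 CPM at E18.5 (log2 difference 0.23, adjusted p = 0.669). Acta2, smooth muscle actin, was at 1439, 673 and 974 CPM and 929, 829.5 and 1025 CPM, with replicate 1 the highest and replicate 2 the lowest of all 6 libraries, both from E14.5. Flna, an actin crosslinker of most cells, was the most abundant member, at 1815, 1705 and 1921 CPM and 1793, 1431 and 1452 CPM (adjusted p = 0.498).

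In the bladder mesenchyme of the same stages all 20 contractile genes rose, with a median log2 difference of 1.91, where 23.7% of all genes rose and 22% fell. The difference between the urethral and bladder changes passed the test for 14 of the 20, each with the smaller log2 value in the urethra, against 4.64% of all genes with a smaller value and 4.03% with a larger one (8.67% in all). For Myh11 the bladder values were 1641, 1743 and 1013 CPM at E14.5 and 14439, 10359.5 and 6847 CPM at E18.5 (difference of changes -2.62 ± 0.50, adjusted p = 0.00872). For Actg2, the enteric-type smooth muscle actin, they were 1099, 961 and 847 CPM and 5809, 8183 and 3965 CPM, while the urethral values were 438, 182 and 260.4 CPM and 181, 252 and 229 CPM (difference of changes -3.04 ± 0.44, adjusted p = 0.00291). The urethral libraries of the stages overlapped for both genes, and the bladder libraries of E18.5 lay above those of E14.5.

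Of 12 tested regulators of smooth muscle, 2 rose and 4 fell. Myocd, the coactivator that turns on contractile genes, stood at 37.3, 46.3 and 61.8 CPM at E14.5 and 19.2, 14.3 and 18.497 CPM at E18.5 (log2 difference -1.48 ± 0.33, adjusted p = 0.00821). Foxf1, a forkhead factor of the Hedgehog-responsive mesenchyme, fell from 236, 178 and 244 CPM to 89.0, 63.9 and 78.0 CPM (log2 difference -1.51 ± 0.23, adjusted p = 0.00114), with no overlap for either gene. Tshz3, needed for ureter smooth muscle, fell by 0.51 on the log2 scale and was not called without replicate 3 of E14.5 or replicate 2 of E18.5, where 2 of the 12 were called lower. The 2 that rose, Tbx18 and Klf4, were both uncalled without replicate 3 of E14.5, and 1 was called without replicate 2 of E14.5 or any 1 E18.5 library. Gata6, a zinc finger factor (log2 difference -1.02), lost its call without replicate 2 of E14.5 (log2 difference -0.45) or any other library but replicate 1 of E14.5. Srf, the DNA-binding partner of Myocd, was at 77.0, 65.9 and 89.1 CPM and 62.3, 66.3 and 62.1 CPM (adjusted p = 0.285).

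**Figure D4:**
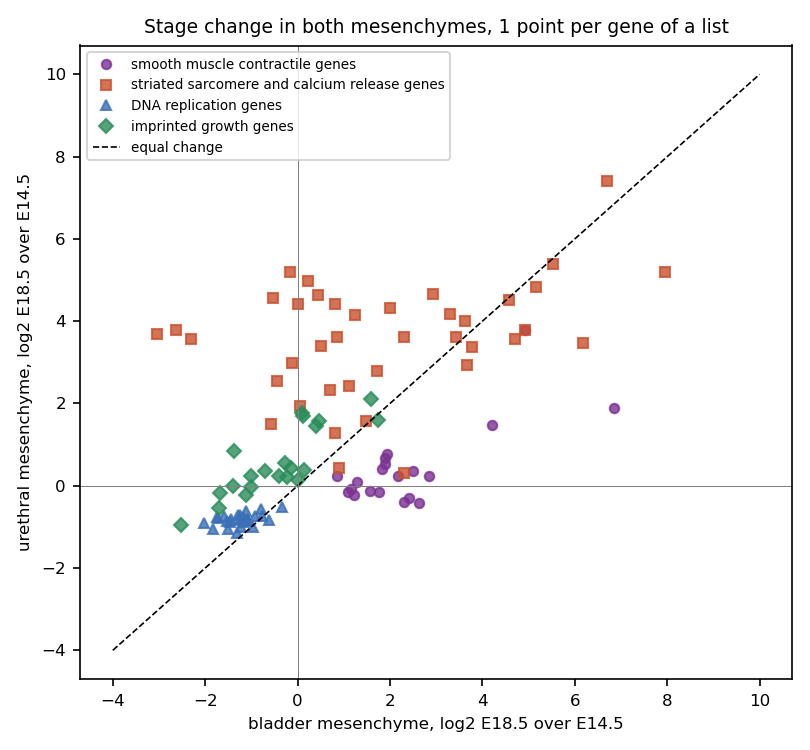
Log2 difference between E18.5 and E14.5 in urethral (vertical) and bladder mesenchyme (horizontal), 1 point per gene of 4 lists, with a dashed line of equal change. Most smooth muscle contractile genes lie below the line, with a urethral median of 0.23, though Casq2 and Des (1.49) lie well above 0 for the urethra. Most sarcomere and imprinted genes lie above the line, and DNA replication genes were lower in both.

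Extracellular matrix genes rose. Of 18 fibrillar and network collagens 14 rose and 0 fell (median log2 difference 1.16), of 13 small leucine-rich proteoglycans 11 rose and 0 fell (median 1.70), of 18 matrix glycoprotein and hyaluronan genes 9 rose and 1 fell (median 1.12), and of 16 elastic fibre genes 7 rose and 0 fell (median 0.37). Without replicate 3 of E14.5 the proteoglycan count was 7 and the elastic fibre count 3, and without replicate 2 of E14.5 the elastic fibre count was again 3. In the bladder 15 of the 18 collagens and 8 of the 13 proteoglycans rose.

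Col1a1, a chain of type I collagen, stood at 2304, 2118 and 1517 CPM at E14.5 and 5244, 4543 and 5150.1 CPM at E18.5 (log2 difference 1.33 ± 0.20, adjusted p = 0.000926), with no overlap. Col12a1, which coats collagen fibrils, went from 433, 394 and 407 CPM to 1430.1, 1145 and 869 CPM (log2 difference 1.48 ± 0.19, adjusted p = 0.00047), a larger change than in the bladder (difference of changes 1.16 ± 0.27, adjusted p = 0.0197). Col5a3, a minor fibril chain, went from 1.93, 2.198 and 1.58 CPM to 19.7, 37.9 and 38.5 CPM (log2 difference 4.06 ± 0.49, adjusted p = 0.000488). Col15a1 of the basement membrane zone rose in the urethra (log2 difference 1.19, adjusted p = 0.00936). Col4a1, a basement membrane chain, was the most abundant collagen not called, at 1265, 634 and 987 CPM and 1615, 1534 and 1382 CPM (log2 difference 0.65, adjusted p = 0.0906), and was called without replicate 1 of E14.5 (log2 difference 0.90). In GRCm38, Col1a1 lies on chromosome 11 from 94936224 to 94953042 and Col5a3 on chromosome 9 from 20770050 to 20815067.

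Tnxb, the tenascin that spaces collagen fibrils in loose connective tissue, stood at 2.34, 1.67 and 0.918 CPM at E14.5 and 27.4, 52.8 and 33.6 CPM at E18.5 (log2 difference 4.52 ± 0.51, adjusted p = 0.000404). Postn, periostin, which links collagen to its crosslinking enzymes, went from 259.9, 100.2 and 125 CPM to 574, 759 and 577 CPM (log2 difference 1.98 ± 0.32, adjusted p = 0.00161). Among the proteoglycans, Ecm2 was even within stages, at 1.70, 1.52 and 1.28 CPM and 9.39, 7.58 and 8.09 CPM (log2 difference 2.47 ± 0.22, adjusted p = 9.96e-05), and Podn, podocan, rose by a log2 difference of 2.67. Mfap5, a microfibril glycoprotein, went from 18.8, 6.75 and 5.87 CPM to 116, 116 and 109.8 CPM (log2 difference 3.45 ± 0.41, adjusted p = 0.00047). No E18.5 library overlapped an E14.5 library for these 5 genes.

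Eln, elastin itself, stood at 601, 314 and 208 CPM at E14.5 and 1617, 1624 and 1474 CPM at E18.5 (log2 difference 2.07 ± 0.50, adjusted p = 0.0141), but was not called without replicate 2 or 3 of E14.5 (log2 difference 1.96 and 1.78). Has2, which makes hyaluronan, was the 1 glycoprotein gene that fell (2 did without replicate 1 of E14.5), from 12.5, 30.7 and 26.7 CPM to 9.82, 9.79 and 9.09 CPM (log2 difference -1.28 ± 0.30, adjusted p = 0.00972), while its relative Has3 rose from 3.63, 2.30 and 3.56 CPM to 16.6, 12.9 and 12.7 CPM (log2 difference 2.16 ± 0.28, adjusted p = 0.000464). Fn1, fibronectin, stood at 860.4, 1030.0 and 740.0 CPM and 1225, 952 and 852 CPM (adjusted p = 0.583). Of 20 collagen processing genes 7 rose and 0 fell, among them Adamts2, which removes the procollagen N-terminal propeptide (log2 difference 1.69 ± 0.33, adjusted p = 0.0047), and P4ha2, a prolyl hydroxylase (log2 difference 1.05, adjusted p = 0.00168). The count was 4 without replicate 3 of E14.5 and 11 without replicate 1 of both E14.5 groups, and 1 of the genes fell without replicate 1 of E14.5. Serpinh1, the collagen chaperone, was at 1107, 911 and 981 CPM and 1077, 969 and 916 CPM (log2 difference -0.02). Of 20 matrix proteases and inhibitors tested (21 listed), 7 rose and 1 fell, and between 3 and 4 rose without replicate 2 or 3 of E14.5 or replicate 2 or 3 of E18.5. Adamts1, a proteoglycan-cleaving protease, was even across libraries, at 111, 96.4 and 84.5 CPM and 209, 201 and 209 CPM (log2 difference 1.09 ± 0.13, adjusted p = 0.000286).

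Genes of cell division fell in step and by similar amounts. All 27 DNA replication genes tested fell (median log2 difference -0.81), as did 23 of 24 mitosis genes (median -0.85), where 10.8% of all genes fell. Replication genes fell by 0.53 to 1.15 on the log2 scale. Mcm5, a subunit of the replicative helicase, stood at 191, 188 and 230.0 CPM at E14.5 and 106, 98.4 and 91.5 CPM at E18.5 (log2 difference -1.04 ± 0.15, adjusted p = 0.000836). Rrm2, which makes deoxynucleotides, went from 115, 124 and 127 CPM to 57.4, 54.7 and 52.0 CPM (log2 difference -1.15 ± 0.14, adjusted p = 0.000342). Ccnb1, the cyclin that drives entry into mitosis, went from 107, 118 and 124 CPM to 57.9, 51.9 and 53.9 CPM (log2 difference -1.09 ± 0.13, adjusted p = 0.000286), and the spindle kinase Aurka from 48.9, 46.5 and 54.0 CPM to 28.5, 24.7 and 21.8 CPM (log2 difference -0.99 ± 0.16, adjusted p = 0.00119). The stages did not overlap for any of the 4, and the spread within a stage was small. Mki67, the proliferation antigen, was the member not called, at 211, 258 and 284 CPM and 216, 159 and 166 CPM (log2 difference -0.48, adjusted p = 0.0764), with replicate 1 of E18.5 above replicate 1 of E14.5. It was called without either of those libraries.

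The promoters of Ccnb1, Aurka and Mcm5 are shown as examples of genes that fell together. The letters searched on both strands were CCAAT, bound by NF-Y, TTTGAA, the cell cycle homology element of mitotic genes, and GCGGGAA, an E2F site, in windows of 250 bases before to 50 after the first RefSeq start listed (GRCm38.p6). CCAAT occurred in 16 of 19 mitosis promoters found in the table (84.2%) and 15 of 22 replication promoters (68.2%), against 38.1% of 12724 promoters of tested genes. TTTGAA occurred in 14 of 19 mitosis promoters (73.7%) against 12.2%, and GCGGGAA in 12 of 22 replication promoters (54.5%) and 0 of 19 mitosis promoters against 7.92%. Over all 27025 promoters of the table the shares were 37.9%, 18.1% and 4.66%. Capitals mark these letters.
Ccnb1, chr13:100786437-100786736, minus strand: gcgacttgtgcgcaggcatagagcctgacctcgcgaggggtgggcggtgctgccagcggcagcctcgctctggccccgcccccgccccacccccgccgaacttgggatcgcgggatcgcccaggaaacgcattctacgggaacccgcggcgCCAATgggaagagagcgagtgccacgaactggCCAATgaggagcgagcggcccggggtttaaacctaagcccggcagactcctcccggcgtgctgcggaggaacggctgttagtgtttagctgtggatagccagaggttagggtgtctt
Aurka, chr2:172370521-172370820, minus strand: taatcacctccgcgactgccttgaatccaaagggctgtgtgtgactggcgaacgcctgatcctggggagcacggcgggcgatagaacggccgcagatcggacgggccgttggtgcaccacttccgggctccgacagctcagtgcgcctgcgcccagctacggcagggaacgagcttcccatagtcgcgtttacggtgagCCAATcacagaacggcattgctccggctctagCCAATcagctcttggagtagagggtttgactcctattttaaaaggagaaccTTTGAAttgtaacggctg
Mcm5, chr8:75109259-75109558, plus strand: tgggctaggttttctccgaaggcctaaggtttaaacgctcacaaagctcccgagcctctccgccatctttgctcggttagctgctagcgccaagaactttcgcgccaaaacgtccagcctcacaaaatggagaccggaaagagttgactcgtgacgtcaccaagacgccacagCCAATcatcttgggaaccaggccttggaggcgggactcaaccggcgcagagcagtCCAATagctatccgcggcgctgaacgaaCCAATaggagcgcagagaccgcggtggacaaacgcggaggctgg
CCAAT occurred 2 times in the Ccnb1 and Aurka windows and 3 times in that of Mcm5, each on the strand that RefSeq gives the gene, and TTTGAA 1 time, in that of Aurka. The end of the window was found in a GENCODE transcript of the gene for Ccnb1 and Chrng. For Aurka and Mcm5 it was not found, so their starts rest on RefSeq alone. The matches describe the windows and name no bound factor.

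Of 7 inhibitors of cyclin-dependent kinases 1 rose, Cdkn1a, which encodes p21, at 28.9, 8.90 and 9.14 CPM at E14.5 and 79.3, 102 and 92.5 CPM at E18.5 (log2 difference 2.55 ± 0.45, adjusted p = 0.00291), and 2 rose without replicate 1 of E14.5. The most abundant, Cdkn1c, was at 709, 484 and 621 CPM and 794, 800.2 and 724 CPM (adjusted p = 0.127), with opposite-strand exons over 31% of its own and a strand setting of the counting that is not given in the sources used here.

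Genes that mark the fetal growth programme fell: 6 of 11 oncofetal timing genes tested (12 listed) and 0 rose, with a median log2 difference of -0.79. Hmga2, a chromatin protein of fetal progenitors, stood at 96.2, 256 and 338 CPM at E14.5 and 20.5, 21.3 and 13.8 CPM at E18.5 (log2 difference -3.64 ± 0.41, adjusted p = 0.000388). Replicate 1 was the lowest at E14.5 and still far above E18.5. The RNA-binding Igf2bp1 went from 56.8, 108 and 91.5 CPM to 39.7, 37.8 and 31.1 CPM (log2 difference -1.24 ± 0.21, adjusted p = 0.00179), and its relatives Igf2bp2 and Igf2bp3 fell by 0.79 and 0.87. Lin28b, which blocks let-7 microRNA maturation, fell by 2.61 on the log2 scale at low level, from 1.13, 3.64 and 2.57 CPM to 0.101, 0.738 and 0.409 CPM. Hmga1 was at 57.1, 43.4 and 53.7 CPM and 36.9, 43.6 and 41.1 CPM (adjusted p = 0.133). In GRCm38, Hmga2 lies on chromosome 10 from 120361275 to 120476469.

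Among imprinted growth genes more rose than fell. Of 21 tested 8 rose and 0 fell (median log2 difference 0.35), with 5 higher without replicate 3 of E14.5 or replicate 2 of E18.5. Dlk1, a transmembrane regulator of progenitor growth, stood at 256, 208 and 214 CPM at E14.5 and 609.8, 941 and 652 CPM at E18.5 (log2 difference 1.70 ± 0.17, adjusted p = 0.00015), and the maternally expressed long RNA Rian rose by a log2 difference of 1.58. Igf2 was at 63.0, 92.4 and 84.1 CPM and 67.8, 77.8 and 65.5 CPM (log2 difference -0.18, adjusted p = 0.452), and H19, its neighbour, at 2105, 1720.3 and 1999 CPM and 2107, 2506 and 2264 CPM. In the bladder 2 of the 21 rose and 10 fell, against 23.7% and 22% of all genes. The difference of the changes passed for 11, each with the larger log2 value in the urethra, against 4.03% of all genes. For Igf2 the bladder values were 205, 301 and 246 CPM and 83.2, 80.7 and 70.0 CPM (difference of changes 1.5 ± 0.23, adjusted p = 0.00327), and for Mest 1069, 1349.6 and 1224 CPM and 484, 493 and 414 CPM against 770.5, 673 and 827 CPM and 728, 843 and 681 CPM in the urethra (difference of changes 1.38 ± 0.19, adjusted p = 0.00226). Of 14 insulin-like growth factor genes 3 rose and 0 fell, against 13.6% and 10.8% of all genes. Among the 3 were the binding proteins Igfbp3 (log2 difference 1.18 ± 0.23, adjusted p = 0.00391) and Igfbp7 (log2 difference 1.89 ± 0.44, adjusted p = 0.0112).

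Hedgehog receptor and effector genes fell, and the ligand was not called. Of 16 pathway genes 9 fell and 3 rose (median log2 difference -0.45), and 4 fell and 1 rose without replicate 3 of E14.5 or replicate 2 or 3 of E18.5. Ptch1, receptor and target, stood at 294, 384 and 420.2 CPM at E14.5 and 167, 125 and 156 CPM at E18.5 (log2 difference -1.29 ± 0.25, adjusted p = 0.00369). Gli1, effector and target, went from 112, 231 and 143 CPM to 88.8, 63.9 and 80.1 CPM (log2 difference -1.06 ± 0.23, adjusted p = 0.00706). The stages did not overlap for either gene. Shh, the ligand made by the epithelium, was at 55.1, 57.0 and 65.0 CPM and 72.1, 57.8 and 81.7 CPM (adjusted p = 0.767), in libraries whose epithelial markers varied as given above, and Hhip, an antagonist and target, at 71.0, 60.1 and 90.4 CPM and 72.3, 40.8 and 72.4 CPM (adjusted p = 0.435). Cdon, a coreceptor, rose from 49.7, 45.2 and 49.3 CPM to 107, 137 and 98.7 CPM (log2 difference 1.25 ± 0.25, adjusted p = 0.00512). In the bladder 9 of the 16 fell and 2 rose, against 22% and 23.7% of all genes. The difference of the changes passed for 2, Shh and Hhip, both with the smaller log2 value in the urethra (adjusted p = 0.0493 and 0.0472), and neither was called without any 1 E18.5 urethral library. In the bladder all 22 epithelial markers rose (median log2 difference 3.44), from a summed 434 to 2141 CPM at E14.5 to 11835 to 15882 CPM at E18.5, and the part of epithelium in the difference for Shh was not tested.

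**Figure D5:**
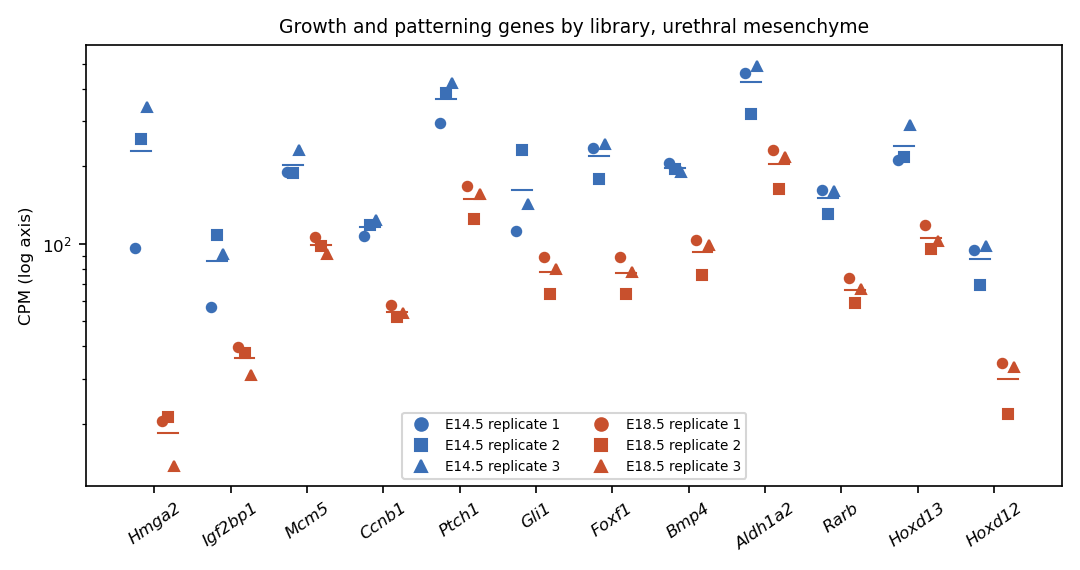
CPM (log axis) of 12 growth and patterning genes in each urethral library, with bars at group means. All E18.5 libraries (red) lie below all E14.5 libraries (blue) for each gene. Among the E14.5 libraries, replicate 1 is the lowest for Hmga2, Igf2bp1, Ccnb1, Ptch1, Gli1 and Hoxd13. It is not the lowest for Mcm5, Foxf1, Bmp4, Aldh1a2 and Hoxd12.

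Retinoic acid genes fell more often than they rose: of 17 tested (18 listed) 6 fell and 2 rose (1 rose without replicate 2 or 3 of E14.5 or replicate 2 of E18.5). Aldh1a2, which makes retinoic acid, stood at 458, 319 and 491 CPM at E14.5 and 231, 163 and 216 CPM at E18.5 (log2 difference -1.06 ± 0.22, adjusted p = 0.00491). Rdh10, the enzyme of the step before, went from 126, 116 and 162 CPM to 72.6, 53.0 and 51.7 CPM (log2 difference -1.19 ± 0.20, adjusted p = 0.00185), and the receptor and target Rarb fell by 1.18 on the log2 scale (adjusted p = 0.000489). A different retinaldehyde dehydrogenase, Aldh1a3, rose from 12.7, 10.8 and 10.9 CPM to 41.2, 74.2 and 33.2 CPM (log2 difference 2.11 ± 0.28, adjusted p = 0.00047), with a larger log2 value than in the bladder (difference of changes 3.23 ± 0.40, adjusted p = 0.00123). Crabp2, which carries retinoic acid to the nucleus, fell in the urethra (log2 difference -0.59, adjusted p = 0.0116, not called without replicate 3 of E18.5) and far more in the bladder, from 28.8, 24.8 and 27.3 CPM to 2.50, 3.49 and 3.10 CPM (difference of changes 2.56 ± 0.22, adjusted p = 0.000673).

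Posterior Hox genes fell in part. Of 15 tested (17 listed) 5 fell and 0 rose. Hoxd13, which patterns the most caudal body, stood at 212, 216 and 288 CPM at E14.5 and 118, 95.3 and 102 CPM at E18.5 (log2 difference -1.18 ± 0.14, adjusted p = 0.000286), and its neighbour Hoxd12 went from 94.8, 69.2 and 98.3 CPM to 34.6, 21.8 and 33.4 CPM (log2 difference -1.54 ± 0.19, adjusted p = 0.000404). Hoxa13 fell by 0.80 on the log2 scale (adjusted p = 0.00272). Hoxa10 was at 76.5, 88.4 and 68.6 CPM and 77.4, 67.9 and 78.1 CPM (adjusted p = 0.817). In GRCm38, Hoxd13 lies on chromosome 2 from 74668310 to 74671599.

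Of 41 patterning transcription factors tested (44 listed) 13 fell and 1 rose (median log2 difference -0.33), and 5, 7, 4 and 4 fell without replicate 3 of E14.5 and replicates 1, 2 and 3 of E18.5. Without replicate 1 of E14.5, 3 rose, and without replicate 1 of both E14.5 groups 6 rose. Nr2f1, an orphan receptor of mesenchyme, fell from 312, 253 and 246 CPM to 125, 106 and 116 CPM (log2 difference -1.22 ± 0.16, adjusted p = 0.000489). Tbx5 fell by 1.25 and Foxc2 by 1.45 on the log2 scale (adjusted p = 0.00291 and 0.00675). Dlx5 and Dlx6, paired homeobox genes of the genital region, fell by 2.27 and 3.83, but each lost its call without any 1 library other than replicate 1 of E14.5. The 1 that rose, the homeobox gene Barx2, was at 39.0, 7.64 and 14.1 CPM and 73.8, 80.4 and 80.2 CPM (log2 difference 1.95 ± 0.55, adjusted p = 0.0264), and lost its call without any 1 library other than replicate 1 of E14.5. Its highest E14.5 library, replicate 1, was also the one with the most epithelial marker RNA, and whether epithelium adds to its level was not tested.

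Of 18 tested Wnt ligands and R-spondins (20 listed) 4 were lower and 3 higher, against 10.8% and 13.6% of all genes. Without replicate 3 of E14.5 or replicate 1 or 3 of E18.5, 2 were lower. Wnt2, a mesenchymal ligand, fell from 37.7, 52.1 and 36.7 CPM to 21.7, 17.5 and 19.7 CPM (log2 difference -1.10 ± 0.25, adjusted p = 0.00876). Rspo3, which raises Wnt receptor levels, stood at 40.4, 42.2 and 59.5 CPM at E14.5 and 12.9, 10.9 and 10.9 CPM at E18.5 (log2 difference -2.03 ± 0.49, adjusted p = 0.0125), a fall that was not called without replicate 3 of E14.5 or replicate 2 or 3 of E18.5 although the stages did not overlap. The 3 ligands that rose, Wnt4, Wnt3 and Wnt16, were all uncalled without replicate 2 or 3 of E14.5 or replicate 2 or 3 of E18.5, and 1 of them was called without replicate 1 of E18.5. Wnt5a was at 222, 156 and 190.4 CPM and 245, 153 and 194 CPM (log2 difference 0.06). Of 13 genes tested from the list of Wnt antagonists (14 listed) 4 rose and 1 fell (2 rose without replicate 3 of E14.5): Kremen1, a receptor of the Dkk antagonists, went from 60.2, 39.6 and 48.2 CPM to 105.1, 104.6 and 107 CPM (log2 difference 1.10 ± 0.19, adjusted p = 0.00217), and Frzb from 21.6, 15.1 and 20.0 CPM to 9.03, 5.45 and 5.73 CPM (log2 difference -1.48 ± 0.27, adjusted p = 0.00252). Of 14 response genes 3 fell, among them Tcf7, from 27.9, 26.9 and 37.6 CPM to 19.6, 10.8 and 14.4 CPM (log2 difference -1.04 ± 0.21, adjusted p = 0.0044), and 0 rose. Without replicate 3 of E14.5, 1 fell.

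Of 15 BMP and GDF ligands 5 rose and 2 fell, with 2 higher without replicate 3 of E14.5 and 3 without replicate 2 of E14.5 or replicate 2 of E18.5. Bmp4, a mesenchymal target of Hedgehog signals, stood at 205, 195 and 189 CPM at E14.5 and 103, 75.6 and 99.0 CPM at E18.5 (log2 difference -1.08 ± 0.17, adjusted p = 0.00114), and Gdf6 fell by 1.81 on the log2 scale (adjusted p = 0.00443). Mstn, myostatin, a brake on skeletal muscle growth, rose from 0.946, 0.209 and 0.330 CPM to 9.97, 11.3 and 6.28 CPM (log2 difference 4.24 ± 0.63, adjusted p = 0.000897), and in the bladder was at 0.640, 0.953 and 0.605 CPM and 0.0747, 0 and 0.320 CPM. Of 18 BMP antagonists and Id genes 5 rose and 1 fell, with 3 higher and 0 lower without any 1 urethral library other than replicate 1 of E14.5. Fst, follistatin, which binds activin and myostatin, went from 17.0, 8.79 and 10.5 CPM to 28.5, 73.5 and 50.5 CPM (log2 difference 2.07 ± 0.34, adjusted p = 0.00172). The response genes Id1, Id2, Id3 and Id4 were not called.

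Of 23 FGF genes tested (25 listed) 8 rose and 0 fell (4 without replicate 3 of E14.5 or replicate 2 of E18.5, and 5 without replicate 1 of E18.5, and 1 fell without replicate 1 of E14.5). Fgfr4, a receptor of muscle precursors, stood at 4.43, 2.51 and 1.36 CPM at E14.5 and 48.7, 36.6 and 37.8 CPM at E18.5 (log2 difference 3.89 ± 0.40, adjusted p = 0.000175). The ligand Fgf7, made by mesenchyme for epithelium, went from 4.05, 1.86 and 2.13 CPM to 13.2, 16.7 and 15.6 CPM (log2 difference 2.51 ± 0.56, adjusted p = 0.00796), and Fgf18 from 2.50, 1.28 and 1.65 CPM to 6.98, 8.97 and 4.97 CPM (log2 difference 1.95 ± 0.37, adjusted p = 0.00311). Fgfr1 was at 240.4, 199 and 228 CPM and 240.3, 235 and 201 CPM (log2 difference 0.02). Of 13 TGF-beta genes 6 rose and 0 fell, led by the coreceptor Tgfbr3 (18.7 ± 1.28 to 45.1 ± 6.499 CPM, SD, n = 3, log2 difference 1.27, adjusted p = 0.000789), with 3 higher without replicate 2 or 3 of E14.5 or replicate 1 or 3 of E18.5 and 1 lower without replicate 1 or 2 of E14.5. Of 18 Notch genes 4 rose and 1 fell, against 13.6% and 10.8% of all genes. The higher count was 2 without replicate 2 or 3 of E14.5 or replicate 1 or 2 of E18.5, and 7 without replicate 1 of E14.5. Jag1, a ligand, fell by 0.58 on the log2 scale (adjusted p = 0.00332), and Lfng, which modifies Notch receptors, rose from 18.6, 13.8 and 14.4 CPM to 36.01, 34.3 and 31.3 CPM (log2 difference 1.12 ± 0.22, adjusted p = 0.00369).

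Of 14 glucocorticoid genes 9 rose and 1 fell (5 higher without replicate 3 of E14.5). Klf9, a direct target of the glucocorticoid receptor, stood at 20.8, 9.11 and 12.5 CPM at E14.5 and 55.5, 56.0 and 59.5 CPM at E18.5 (log2 difference 2.02 ± 0.30, adjusted p = 0.00108), with replicate 1 the highest at E14.5 and no overlap. Zbtb16, another target, went from 0.794, 1.65 and 1.25 CPM to 4.85, 6.92 and 14.2 CPM (log2 difference 2.79 ± 0.38, adjusted p = 0.00061). Hsd11b2, which inactivates the hormone, was the 1 that fell, from 12.3, 31.8 and 34.9 CPM to 9.24, 5.70 and 5.79 CPM (log2 difference -1.93 ± 0.36, adjusted p = 0.00311), while the targets Tsc22d3 and Fkbp5 were not called (log2 difference -0.25 and 0.04). In the bladder 11 of the 14 rose and 1 fell.

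Of 13 sex steroid genes tested (15 in the tables) 4 rose and 2 fell, against 13.6% and 10.8% of all genes. The higher count was 1 without replicate 2 or 3 of E14.5 or replicate 3 of E18.5, and 2 without replicate 1 of E18.5. A single gene was lower without replicate 1 or 3 of E14.5 or replicate 2 or 3 of E18.5. Greb1, an early estrogen-regulated gene, stood at 6.58, 18.7 and 19.3 CPM at E14.5 and 3.12, 3.73 and 2.95 CPM at E18.5 (log2 difference -2.19 ± 0.35, adjusted p = 0.00131). Esr1, the estrogen receptor, was at 52.8, 16.0 and 19.4 CPM and 107, 71.7 and 82.0 CPM (log2 difference 1.57, adjusted p = 0.156), with no overlap between the stages. It was called higher with limma-voom (adjusted p = 0.00869), in a fit of the urethral libraries alone (adjusted p = 0.0325), and without replicate 1 of both E14.5 groups, where the log2 difference was 2.30.

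Of 29 axon guidance and neurotrophic genes 6 fell and 3 rose (5 rose without replicate 1 of both E14.5 groups), against 10.8% and 13.6% of all genes. Unc5c, a netrin receptor, fell from 108, 144 and 179.6 CPM to 63.0, 48.4 and 59.5 CPM (log2 difference -1.34 ± 0.23, adjusted p = 0.0021), and the Eph receptor Epha7 by 1.14 on the log2 scale. Sema3b, a secreted guidance cue, rose from 8.36, 6.99 and 6.68 CPM to 25.3, 32.7 and 31.3 CPM (log2 difference 2.02 ± 0.20, adjusted p = 0.00015). Artn, a growth factor for sympathetic neurons, rose from 2.61, 2.77 and 1.03 CPM to 6.37, 8.89 and 7.80 CPM (log2 difference 1.84 ± 0.37, adjusted p = 0.00464). Bdnf and Gdnf were not called.

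Immune genes rose. Of 16 interferon response and antigen presentation genes 14 rose and 0 fell (median log2 difference 1.51), and all 14 macrophage markers rose (median 1.60). Isg15, an interferon-induced ubiquitin-like protein, stood at 0.378, 0.314 and 0.220 CPM at E14.5 and 4.26, 3.85 and 3.71 CPM at E18.5 (log2 difference 3.68 ± 0.32, adjusted p = 9.96e-05), and the class I antigen gene H2-D1 rose by a log2 difference of 1.68 (adjusted p = 0.000156), with the limit that class I genes have near-identical copies. The coagulation factor gene F13a1, high in tissue macrophages, went from 8.47, 4.87 and 4.41 CPM to 33.7, 47.8 and 54.3 CPM (log2 difference 2.94 ± 0.26, adjusted p = 0.000115). Mrc1, the mannose receptor, rose by a log2 difference of 1.57 (adjusted p = 0.000514). Summed macrophage markers were 97.2 to 162 CPM at E14.5 and 369 to 387 CPM at E18.5. In the bladder 13 of the 16 interferon genes and 7 of the 14 macrophage markers rose, against 23.7% of all genes. For 3 macrophage markers the log2 value was larger in the urethra, against 4.03% of all genes. Of 5 tested mast cell markers 4 rose, among them the tryptase Tpsb2, from 0.113, 0.0523 and 0.220 CPM to 1.70, 2.09 and 3.68 CPM (log2 difference 4.30 ± 0.51, adjusted p = 0.000314).

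Of 16 complement genes 9 rose and 1 fell, the fall not called without replicate 1 or 3 of E14.5 or replicate 2 or 3 of E18.5. Among the 9, C1qa, C1qb and C1qc are also on the list of macrophage markers above. C3, the central component, stood at 0.454, 0.183 and 0.147 CPM at E14.5 and 4.24, 5.57 and 7.04 CPM at E18.5 (log2 difference 4.45 ± 0.46, adjusted p = 0.000249), and rose less than in the bladder, where it went from 1.92, 0.580 and 1.04 CPM to 694, 435 and 456 CPM (difference of changes -4.37 ± 0.77, adjusted p = 0.00651). Of 11 lipid storage genes tested (16 listed) 6 rose and 0 fell. Fabp4, a fatty acid carrier of adipocytes and capillaries, stood at 1.21, 0.837 and 0.955 CPM at E14.5 and 15.8, 56.9 and 83.0 CPM at E18.5 (log2 difference 5.71 ± 0.72, adjusted p = 0.000624), with replicate 1 the lowest at E18.5, and the adipocyte regulator Pparg went from 2.19, 1.73 and 1.06 CPM to 7.87, 10.7 and 14.1 CPM (log2 difference 2.71 ± 0.41, adjusted p = 0.00116). Cidec, Cfd and Retn, markers of mature fat cells, had no count in the urethral libraries.

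Of 21 immediate early genes tested (23 listed) 15 rose and 0 fell (median log2 difference 1.38). Fos stood at 5.07, 5.81 and 3.45 CPM at E14.5 and 20.96, 30.8 and 22.6 CPM at E18.5 (log2 difference 2.37 ± 0.42, adjusted p = 0.00238), and Fosb at 0.756, 0.942 and 0.441 CPM and 3.45, 41.8 and 4.30 CPM, with replicate 2 of E18.5 far above the rest. Without that library the log2 difference of Fosb was 2.42 instead of 4.5, and that of Atf3 was 1.85 instead of 3.05. Immediate early genes are switched on within minutes by many stimuli, handling of tissue among them, and its part was not tested. Jun was at 177, 133 and 168 CPM and 143, 168 and 146 CPM (adjusted p = 0.749).

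Of 36 ribosomal protein genes 0 rose and 0 fell in the urethra (median log2 difference -0.12), by edgeR, DESeq2 or limma-voom. At an unadjusted p under 0.05 in edgeR, 0 were higher and 1 lower. In the bladder 17 fell, against 22% of all genes, and the difference of the changes passed for 0 of the 36 (1 at an unadjusted p under 0.05). Of 28 nuclear oxidative phosphorylation genes 2 rose and 2 fell (median log2 difference -0.24, 3 above 0). At an unadjusted p under 0.05, 2 were higher and 12 lower, and 12 were lower with no overlap between the stages, against 22.7% of all genes. The lower count was 5 without replicate 2 of E14.5, 1 without replicate 1 or 2 of E18.5, and 7 with the exon-length trend removed. The 2 that rose, Cox6a2 and Cox8b, are the striated muscle forms of their subunits (log2 difference 4.39, adjusted p = 0.00591 and log2 difference 2.75, adjusted p = 0.0047). Without replicate 1 of E14.5 the log2 difference of Cox6a2 was 9.15. Of 20 glycolysis genes 9 rose and 1 fell, the fall not called without any 1 urethral library. The higher count ranged from 2 without replicate 3 of E14.5 to 14 without replicate 1 of E14.5, with 4, 3 and 3 without replicate 2 of E14.5 and replicates 2 and 3 of E18.5. Pgam2, the muscle form of phosphoglycerate mutase, led them (log2 difference 3.76 ± 0.63, adjusted p = 0.00169), and Pdk1, which turns pyruvate away from mitochondria, rose from 80.0, 65.6 and 54.7 CPM to 118, 104 and 159 CPM (log2 difference 0.93 ± 0.19, adjusted p = 0.00517).

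Markers of other cell types in the tissue moved as follows. Of 15 blood endothelial markers 5 rose and 0 fell, with Egfl7 at 18.7, 34.0 and 17.4 CPM and 56.9, 57.2 and 51.0 CPM (log2 difference 1.23 ± 0.25, adjusted p = 0.00442) and 3 higher without replicate 2 or 3 of E14.5 or replicate 1 or 2 of E18.5. In the bladder 0 of the 15 rose and 3 fell, against 23.7% and 22% of all genes. The difference of the changes passed for 6, each with the larger log2 value in the urethra, against 4.03% of all genes. Of 7 pericyte markers 5 rose, among them Higd1b, from 0.151, 0.105 and 0 CPM to 2.31, 2.34 and 3.01 CPM (log2 difference 4.81 ± 0.73, adjusted p = 0.00104), and 2 to 3 without any 1 library other than replicate 1 of E14.5. Of 17 neuronal markers 1 rose, Th, which makes dopamine and noradrenaline precursors, from 17.1, 8.53 and 8.48 CPM to 30.1, 53.3 and 46.0 CPM (log2 difference 1.93 ± 0.43, adjusted p = 0.00802), and 0 fell. Of 10 glial markers 3 rose, with 1 higher without replicate 2 or 3 of E14.5 or replicate 2 or 3 of E18.5 and 7 without replicate 1 of E14.5. Of 6 tested lymphatic endothelial markers (7 listed) 2 rose, Lyve1 and Prox1, and 0 fell, against 13.6% and 10.8% of all genes. Lyve1 of lymphatic endothelium and some macrophages rose from 2.53, 2.56 and 2.35 CPM to 6.98, 19.8 and 15.5 CPM (log2 difference 2.49 ± 0.32, adjusted p = 0.000488). Flt4, Pdpn, Reln and Mmrn1 were not called (log2 difference -0.30, 0.27, 1.80 and 0.28). Pax2, a duct epithelium factor, was at 0.416, 1.39 and 1.32 CPM at E14.5 and had no count at E18.5, at least 35.6-fold lower. Of 8 tested mesothelial markers (9 listed) 4 rose and 1 fell. The rises, of which 1 is a gene also on the epithelial list, numbered 2 without replicate 3 of E14.5 or replicate 2 of E18.5, and the fall was not called without any 1 library other than replicate 1 of E14.5. Msln, mesothelin of the outer lining, rose from 8.81, 4.37 and 1.03 CPM to 59.8, 89.7 and 73.8 CPM (log2 difference 3.98 ± 0.79, adjusted p = 0.00558). The mesothelial marker that fell, Wt1, went from 13.4, 62.0 and 70.9 CPM to 12.1, 12.7 and 13.2 CPM (log2 difference -1.95 ± 0.60, adjusted p = 0.0383). Lrrn4, Gpm6a and Bnc1 were not called (log2 difference -1.06, 0.23 and -0.26). Of 10 tested cartilage and bone markers (14 listed) 2 rose and 1 fell (median log2 difference -0.0040). None of the rises was called without any 1 E14.5 library or replicate 3 of E18.5, 1 was called without replicate 1 or 2 of E18.5, and 2 markers fell without replicate 2 of E14.5. The 1 that fell, Col2a1, a cartilage collagen, went from 26.5, 50.3 and 57.9 CPM to 10.4, 3.93 and 11.9 CPM (log2 difference -2.35 ± 0.47, adjusted p = 0.00518). Xist overlapped between the stages (309.9, 1697 and 484 CPM and 1149, 749 and 792 CPM) and was called higher without replicate 2 of E14.5 (log2 difference 1.17).

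The urethral change was set against that of bladder mesenchyme to find where it differed. In the bladder 8597 genes were called (45.7%), and 3360 genes were called in both mesenchymes, 3276 in the same direction. The difference of the changes passed for 1631 genes (8.67%), 758 with a larger log2 value in the urethra and 873 with a smaller one. The split moved with the scaling, to 1044 larger and 647 smaller with upper-quartile size factors. It was 917 and 1505 without replicate 1 of bladder E14.5, and 470 to 865 larger and 502 to 923 smaller without any other 1 library. Of the 4586 genes called in the urethra 575 also differed from the bladder. Genes called in opposite directions numbered 84, of which 53 rose in the urethra and fell in the bladder. The bladder and urethral samples of a litter come from the same embryos, so the 2 changes are not independent.

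Clec14a, an endothelial surface lectin, stood at 29.5, 24.6 and 22.9 CPM at E14.5 and 67.7, 72.8 and 64.3 CPM at E18.5, where the bladder libraries had 48.0, 67.4 and 59.2 CPM and 38.3, 41.5 and 39.9997 CPM (difference of changes 1.95 ± 0.19, adjusted p = 0.000673). It rose in the urethra (log2 difference 1.41, adjusted p = 0.00015), and all bladder libraries of E18.5 lay below those of E14.5. Tnni1 was at 9.51, 7.58 and 9.99 CPM and 1.01, 1.29 and 1.02 CPM in the bladder, against the rise given above in the urethra (difference of changes 6.72 ± 0.63, adjusted p = 0.000673). Sfrp1, a secreted Wnt inhibitor, was at 108, 143 and 153 CPM and 163, 245 and 169.8 CPM in the urethra (adjusted p = 0.0416, not called without any 1 urethral library other than replicate 1 of E18.5) and 260.4, 244 and 289 CPM and 78.7, 84.3 and 72.4 CPM in the bladder (difference of changes 2.27 ± 0.24, adjusted p = 0.000773). Mex3b, an RNA-binding protein, fell in both, by 0.64 on the log2 scale in the urethra and from 95.8, 137 and 126 CPM to 16.3, 21.7 and 17.9 CPM in the bladder (difference of changes 2.05 ± 0.20, adjusted p = 0.000673). Cacng4, a channel auxiliary subunit, followed the same order (difference of changes 1.92 ± 0.19, adjusted p = 0.000673), and Tro, trophinin, was not called in the urethra, at 118, 137 and 117 CPM and 116, 119.6 and 108 CPM while it fell in the bladder (difference of changes 1.62 ± 0.15, adjusted p = 0.000673). Igf2os, antisense to Igf2, differed likewise (difference of changes 2.39 ± 0.25, adjusted p = 0.000773), with opposite-strand exons over 23% of its own.

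Genes with the smaller log2 value in the urethra included the membrane protein genes Kcnd3 and Bves. Kcnd3, a voltage-gated potassium channel subunit, fell in the urethra from 28.5, 37.2 and 36.5 CPM to 8.32, 9.75 and 9.53 CPM (log2 difference -1.89 ± 0.25, adjusted p = 0.000488) and in the bladder was at 35.5, 46.3 and 28.0 CPM and 120.2, 74.6 and 61.2 CPM (difference of changes -3.11 ± 0.34, adjusted p = 0.00102). Bves, a Popeye domain protein of muscle membranes, stood at 11.2, 8.95 and 8.30 CPM and 4.87, 5.49 and 5.06 CPM in the urethra (log2 difference -0.88, adjusted p = 0.0237, not called without replicate 1 of E14.5 or any 1 E18.5 library) and rose from 29.2, 19.9 and 18.9 CPM to 148, 164 and 81.7 CPM in the bladder (difference of changes -3.42 ± 0.35, adjusted p = 0.000727). Efemp1, an elastic fibre-associated protein, was at 115, 66.1 and 82.9 CPM and 67.5, 49.3 and 70.3 CPM in the urethra and 29.7, 17.4 and 24.7 CPM and 123, 108 and 119.7 CPM in the bladder (difference of changes -2.79 ± 0.32, adjusted p = 0.00106). Prxl2a, a peroxiredoxin-like protein, fell in the urethra (log2 difference -1.09, adjusted p = 0.000847) and rose in the bladder (log2 difference 1.28 ± 0.16, adjusted p = 6.78e-05). Aifm2, Ttc22 and Ralgapa2 followed the same order, with differences of changes of -2.82, -3.13 and -2.14.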

How the data were processed

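RNA-seq of 12 libraries was used, 3 per stage and mesenchyme. Per the labels, libraries were poly(A)-selected, directional and read as pairs on a NovaSeq. The deposited files hold whole-number counts per gene from the authors, not normalized, in 1 table per stage. HISAT2 2.2.1, SAMtools 1.9, bcl2fastq and the mouse build GRCm38 are listed in the submitters' processing notes. Which program counted reads, by which annotation and strand rule, is not given in the sources used here. Genes with a count of 2 outnumbered those with 1 by 2.06 to 2.51 times in each library.

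The tables were joined on gene. Genes passing edgeR's filterByExpr (minimum count 10) were scaled by TMM and fitted with all 4 groups in edgeR 4.0.16 (quasi-likelihood test, 8 residual degrees of freedom), in R 4.3.3. The difference of urethral and bladder changes was a contrast of that fit. Adjusted p under 0.05 (Benjamini-Hochberg) was called. The procedure was tested on simulated counts drawn independently for each library. They held no shared litters and no unlike library such as replicate 1 of E14.5, so they do not cover those features. Alternatives were DESeq2 1.42.0, limma-voom (limma 3.58.1), other scalings (upper-quartile and median-ratio size factors, and an offset removing each library's trend of level on exon length) and filters, the urethral libraries alone, blocks and each library left out, with a litter block added after seeing the data. Counting intervals and floors cover counting error only.

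The members and gene lists were chosen with earlier results of these data known. Genes are named by a rule: the 12 largest called differences in each direction whose higher stage averaged 5 CPM or more without overlap of libraries (leaving out predicted genes, clones, pseudogenes and histones), up to 4 most changed called members and the most abundant uncalled member of each list, and the 8 differences from bladder of smallest adjusted p in each direction. The text gives part of them and adds others chosen after their values were seen, such as Myod1, Myog, Gli1, Bmp4, Aldh1a2, Rarb, Myh11, Igf2 and Esr1. Promoters came from a RefSeq table of GRCm38.p6. Some genes that the rule names are not reported here.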

Additional observations from a re-analysis of the deposited data

Results flagged for a closer look

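The stage change differed between urethral and bladder mesenchyme by the test of the difference itself for 758 genes with the larger log2 value in the urethra and 873 with the smaller one. Values here are the urethral log2 change minus the bladder log2 change. Among those with the larger value, Tnni1 was at 6.72 and Clec14a at 1.95. Crabp2, which carries retinoic acid, was at 2.56, the Wnt inhibitor Sfrp1 at 2.27 and Igf2os at 2.39. Mex3b was at 2.05, Cacng4 at 1.92 and Tro at 1.62. Among those with the smaller value, the potassium channel gene Kcnd3 was at -3.11 and the muscle membrane gene Bves at -3.42. The elastic fibre gene Efemp1 was at -2.79. Ttc22 was at -3.13, Aifm2 at -2.82, Prxl2a at -2.38 and Ralgapa2 at -2.14.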

How the results depend on the processing

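No called gene named here changed direction under the alternatives run. Counts were 2558 genes higher and 2028 lower in the urethra, and 758 with larger and 873 with smaller log2 values than in the bladder. The balance of the last 2 turned to 1044 larger and 647 smaller with upper-quartile size factors, 786 and 766 with median-ratio factors, 1333 and 1263 with DESeq2 and 848 and 772 with the exon-length trend removed. Leaving out 1 library gave 1461 to 2698 higher, 890 to 1956 lower, 470 to 917 larger and 502 to 1505 smaller. With a 2-fold minimum 360 fell and 561 values were smaller. Without replicate 1 of both E14.5 groups 1450 were smaller. With replicate number as a block, 2418 rose and 1691 fell, and 653 values were larger and 728 smaller. The numbers did not pair the stages (correlation of deviations -0.125, -0.191 and -0.0787). Between bladder and urethra of a stage, like numbers gave 0.197, 0.193 and 0.286 at E18.5 and 0.191, -0.0285 and 0.206 at E14.5. The main fit of the difference of changes used no block for this pairing. With a litter block, added after seeing the data, 831 values were larger and 1063 smaller. Of 346 gene results, 276 kept their direction and side of the threshold without replicate 3 of E14.5, and of 343 that DESeq2 returned, 335 did. With 3 litters per stage, small changes and low genes were not resolved.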
